A study of Mus musculus with 14 samples.

Results

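Liver sinusoidal endothelial genes were taken as 10 listed genes, Stab1, Stab2, Clec4g, Lyve1, Fcgr2b, Cdh5, Pecam1, Kdr, Flt4 and Mrc1. All 10 were found among the 24970 genes with a count, and all 10 were among the 13127 genes with enough counts to test. They were measured by RNA sequencing of whole liver from mice on a high-fat diet. The transplant group (n = 6) carried a silk scaffold seeded with pre-adipocytes, which had been isolated from the stromal part of brown fat and differentiated. The empty scaffold group (n = 8) carried the scaffold alone, so high-fat feeding and the scaffold were common to the groups. No source used here gives the strain, sex or age of the mice, the dose of cells or the time after surgery. The sample titles carry the mark 2x in the transplant group and WT in the empty scaffold group, with no explanation, so anything else these marks stand for cannot be told apart from the transplant.

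The sinusoids are the capillaries of the liver, and their endothelial cells differ from those of other vessels. They have open pores, lack an organised basement membrane, and clear waste macromolecules, lipoproteins and immune complexes from blood by scavenger receptors and lectins. Stab1, Stab2, Mrc1, Lyve1, Fcgr2b and Clec4g encode receptors of that clearance and recognition system. Cdh5 and Pecam1 encode adhesion molecules at contacts between endothelial cells of all vessels, and Kdr and Flt4 encode receptors for vascular endothelial growth factors (VEGF). Several are shared with other cells: Mrc1 and Stab1 with macrophages, Lyve1 and Flt4 with lymphatic endothelium, and Pecam1 with platelets and leukocytes.

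Reads had been assigned to transcripts by the authors, and estimated counts were summed here over the transcripts of each gene. The total per library was 22898793 to 28910968 counts in the transplant group and 19482580 to 28723928 in the empty scaffold group. A member had 92 to 1293 counts in a library. Levels are given as CPM (counts in 1e6 counts of the library) after TMM scaling, and differences as log2 fold changes of transplant over empty scaffold with the standard error (SE) of the fit. Each difference was tested with edgeR's quasi-likelihood test, and a gene was called at a Benjamini-Hochberg adjusted p under 0.05 over all tested genes. The labels do not say that each sample was a separate animal, so a p-value measures the spread between these samples.

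Libraries stood apart in a property that bears on every long gene. The slope of log2 CPM on log2 transcript length, over all tested genes and relative to the mean library, was -0.275 to 0.0326 per doubling of length in the 6 transplant libraries. It was 0.194 to 0.243 in 4 empty scaffold libraries and -0.123 to -0.00348 in the other 4. The means were -0.105 ± 0.112 in the transplant group and 0.0787 ± 0.154 in the empty scaffold group (SD, n = 6 and 8, two-sided exact permutation p = 0.0313). The 4 empty scaffold libraries with the high slopes are those whose sample titles carry a number of 100 or above. The titles fall into 2 ranges, below 100 (3 transplant and 4 empty scaffold samples) and 100 or above (3 and 4), and the labels do not say what the numbers mean. Results on the members are therefore given with and without the length trend, and within each range.

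Stab2 and Cdh5 were called lower in transplant livers than in empty scaffold livers, and no member was called higher. Of all tested genes 4.23% were called lower, 3.31% higher and 7.54% in either direction. The log2 fold change was below 0 for 9 of 10 members, against 52.9% of all tested genes, and the median of the members was -0.43, against -0.02 for all tested genes. An unadjusted p under 0.05 was reached by 7 members, all with lower levels in the transplant group, and 15.4% of all tested genes did so in that direction. Clec4g was the member with a positive value. In whole liver, fewer endothelial cells and less RNA per cell cannot be told apart.

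**Figure D1:**
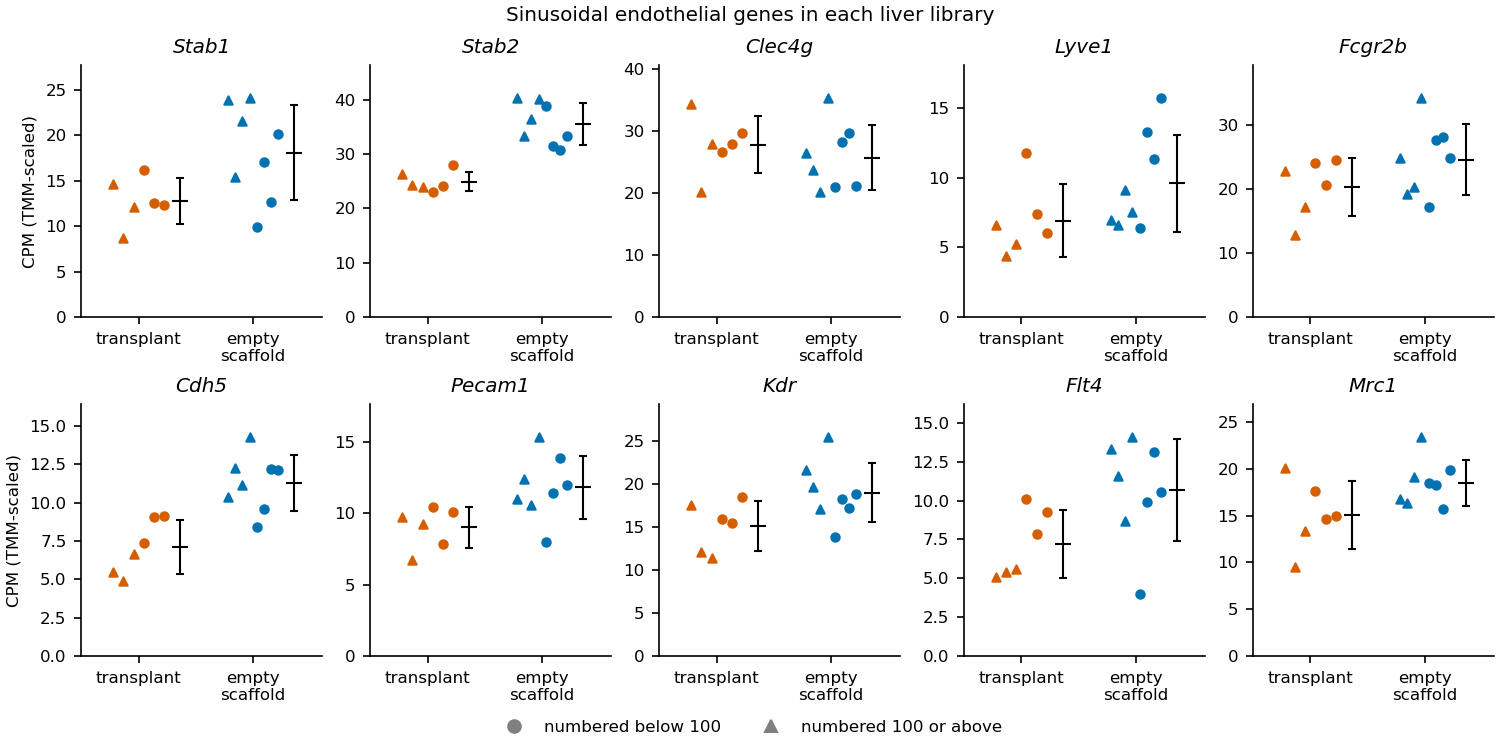
Level of each gene in every library, in TMM-scaled CPM on axes that start at 0, with the transplant group left of the empty scaffold group. Triangles are libraries numbered 100 or above, circles those numbered below 100, and bars show the mean and SD (n = 6 and 8). The Stab2 libraries of the groups do not overlap, at 23.004 to 27.9 CPM against 30.7 to 40.3 CPM, and those of the other 9 genes do.

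Stab2, the endocytic receptor that removes hyaluronan and other glycosaminoglycans from blood, showed the clearest separation of the groups. Its lowest, median and highest levels were 23.004, 24.2 and 27.9 CPM in transplant livers, against 30.7, 34.9 and 40.3 CPM in empty scaffold livers. Every transplant library lay below every empty scaffold library, which was so for 0.701% of all tested genes. Stab2 fell by 0.51 ± 0.09 (SE) on the log2 scale (edgeR quasi-likelihood test, adjusted p = 0.0133). Its spread was small in the transplant group, with 24.9 ± 1.80 CPM against 35.6 ± 3.86 CPM in the empty scaffold group (SD, n = 6 and 8). Of its 31-base words 1.31% also lie in Gm16268, a gene on the opposite strand.

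Stab1, the related receptor for oxidised lipoprotein and extracellular matrix fragments, had 8.65, 12.5 and 16.2 CPM as the lowest, median and highest levels in transplant livers, against 9.89, 18.6 and 24.1 CPM in empty scaffold livers. The groups overlapped, and 5 of 8 empty scaffold libraries lay above all transplant libraries. The log2 fold change was -0.51 ± 0.19 (adjusted p = 0.0914 by edgeR's quasi-likelihood test). The size of the difference was thus close to that of Stab2, while its SE was larger.

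The regions upstream of the stabilin genes and of Clec4g are shown because these genes mark the clearest separation, the same direction with overlap, and the opposite sign. Each is the 250 bases before the RefSeq gene start in build GRCm38.p6, read 5′ to 3′ on the strand of the gene, and all 3 genes lie on the minus strand. Stab2 is at chr10:87007943-87008192, Stab1 at chr14:31168642-31168891 and Clec4g at chr8:3720652-3720901. Capitals mark CAGGAA or its reverse complement TTCCTG, which is the core of sites for ETS factors together with a flank. ETS factors are a family that includes regulators of endothelial genes.
Stab2: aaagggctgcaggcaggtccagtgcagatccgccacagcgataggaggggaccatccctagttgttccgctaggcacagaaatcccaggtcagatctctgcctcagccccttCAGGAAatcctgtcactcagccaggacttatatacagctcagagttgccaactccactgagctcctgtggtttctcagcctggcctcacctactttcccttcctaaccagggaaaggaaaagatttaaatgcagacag
Stab1: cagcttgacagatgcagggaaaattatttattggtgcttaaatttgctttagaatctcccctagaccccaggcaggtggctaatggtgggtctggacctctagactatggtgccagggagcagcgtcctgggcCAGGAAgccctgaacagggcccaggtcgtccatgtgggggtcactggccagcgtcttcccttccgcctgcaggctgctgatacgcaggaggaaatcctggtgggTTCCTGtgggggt
Clec4g: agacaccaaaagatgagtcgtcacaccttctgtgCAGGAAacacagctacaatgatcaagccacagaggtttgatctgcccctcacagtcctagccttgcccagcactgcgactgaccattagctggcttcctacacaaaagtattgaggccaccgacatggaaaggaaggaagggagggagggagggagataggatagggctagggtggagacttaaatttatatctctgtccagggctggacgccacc
RefSeq windows were matched for 7 of 10 members, all but Lyve1, Cdh5 and Pecam1. On either strand CAGGAA occurred once in Stab2 and Clec4g, at 2 places in Stab1 and in Mrc1, and not in Kdr, Flt4 or Fcgr2b. Of 32851 such windows over all genes 25.7% held it. GATAAG, a form of the GATA site, or its reverse complement CTTATC, was in none of the 7 windows and in 6.55% of all windows. Such a match describes the letters of the window alone, and the ETS core without its flank was not counted.

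Mrc1, the mannose receptor that takes up glycoproteins and collagen fragments, had 9.47, 14.8 and 20.1 CPM as lowest, median and highest in transplant livers, against 15.7, 18.4 and 23.4 CPM in empty scaffold livers. Below all empty scaffold libraries lay 4 of 6 transplant libraries, while transplant replicate 1 stood above 7 of the 8. The log2 fold change was -0.30 ± 0.14 (adjusted p = 0.158, edgeR quasi-likelihood test). Lyve1, a hyaluronan receptor, had 4.37, 6.33 and 11.8 CPM in transplant livers, against 6.39, 8.31 and 15.7 CPM in empty scaffold livers. It varied widely within each group, and its log2 fold change of -0.47 ± 0.24 did not pass the test (edgeR adjusted p = 0.194).

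Fcgr2b, the inhibitory receptor for the constant part of IgG and a route of immune complex uptake, had 12.9, 21.7 and 24.6 CPM in transplant livers, against 17.2, 24.8 and 34.3 CPM in empty scaffold livers. The overlap was large, and the log2 fold change was -0.27 ± 0.16 (edgeR adjusted p = 0.271). Of its 5609 distinct 31-base words 8.15% also occurred in other genes, 233 of them in its relative Fcgr3, so part of its reads cannot be placed for certain. Clec4g, a C-type lectin known as LSECtin, had 20.2, 27.9 and 34.3 CPM in transplant livers, against 20.1, 25.1 and 35.3 CPM in empty scaffold livers. The groups covered the same range, with a log2 fold change of 0.11 ± 0.14 (edgeR adjusted p = 0.601).

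Cdh5, which encodes VE-cadherin of endothelial adherens junctions, had the largest difference among the members in the fit of all 14 libraries. Its levels were 4.90, 7.01 and 9.09 CPM as lowest, median and highest in transplant livers, against 8.38, 11.7 and 14.3 CPM in empty scaffold livers. Only the lowest empty scaffold library, replicate 5, lay within the transplant range, and 4 of 6 transplant libraries lay below all empty scaffold libraries. Cdh5 fell by 0.67 ± 0.15 on the log2 scale (adjusted p = 0.0227, edgeR quasi-likelihood test). The call was lost without transplant replicate 1, with a log2 fold change of -0.61 and an edgeR adjusted p of 0.0670, where 1.04% of all genes were called.

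Pecam1, the adhesion molecule CD31, had 6.73, 9.47 and 10.4 CPM in transplant livers, against 7.95, 11.7 and 15.3 CPM in empty scaffold livers. Above all transplant libraries lay 7 of 8 empty scaffold libraries, and the log2 fold change of -0.39 ± 0.14 missed the threshold (edgeR adjusted p = 0.0781). Without empty scaffold replicate 5, the exception, Pecam1, Stab1 and Flt4 also passed the test, at log2 fold changes of -0.46, -0.60 and -0.69, and 5 members were called. Of all genes 12.0% were then called, against 7.54% with all libraries.

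Kdr, the main signalling receptor for VEGF-A, had 11.3, 15.7 and 18.4 CPM in transplant livers, against 13.8, 18.6 and 25.5 CPM in empty scaffold livers. The groups overlapped, with a log2 fold change of -0.33 ± 0.14 (edgeR adjusted p = 0.123). Flt4, the receptor for VEGF-C and VEGF-D, had 5.07, 6.71 and 10.1 CPM in transplant livers, against 3.97, 11.1 and 14.1 CPM in empty scaffold livers. Empty scaffold replicate 5 had the lowest Flt4 of all 14 libraries, and the log2 fold change was -0.57 ± 0.23 (edgeR adjusted p = 0.117).

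The order of the members was compared per unit of length in TPM (transcripts in 1e6 transcripts), within each group. Between the groups TPM was not compared, since the median log2 fold change of all tested genes was -0.47 on that scale, against -0.02 in TMM-scaled CPM. In transplant livers the mean level was 23.5 TPM for Clec4g, 11.05 for Fcgr2b, 6.82 for Stab1, 5.09 for Stab2 and 4.81 for Mrc1. It was 2.41 TPM for Pecam1, 2.38 for Lyve1, 2.13 for Kdr, 1.59 for Cdh5 and 0.878 for Flt4. The ranks from Stab1 to Mrc1 and from Pecam1 to Kdr were not separated, since neighbours there changed places between libraries.

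In empty scaffold livers the order was again Clec4g (30.2 TPM) and Fcgr2b (18.2), each above the next gene in 8 of 8 libraries. Stab2 (9.82) and Stab1 (8.98) changed places, with Stab2 above Stab1 in 4 of 8 libraries. Mrc1 (6.66) stood above Lyve1 (4.46) in 8 of 8, and Lyve1, Pecam1 (4.401), Kdr (3.89) and Cdh5 (3.70) were not separated. Flt4 was again the lowest, at 1.86 TPM. With all transcripts summed, the receptors of clearance were thus the more abundant members per length in each group, Lyve1 apart. Among single protein-coding transcripts in transplant livers, Stab1-201 had 0.349 TPM, Stab2-201 1.34 and Mrc1-201 1.57, against 2.13 for Kdr-201 and 1.55 for Cdh5-201. In empty scaffold livers these had 1.07, 2.71 and 3.81 TPM, against 3.87 and 3.48. By mean, Kdr-201 thus stood above Stab1-201, Stab2-201 and Mrc1-201 in each group, while Clec4g-202 and Fcgr2b-202 stood above Kdr-201.

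The length trend reached the members to unequal degrees. Over all tested genes the median log2 fold change was 0.27 in the shortest of 5 equal classes of transcript length and 0.09, -0.02, -0.12 and -0.24 in the next 4. The share of genes called lower was 0.914% in the shortest class and 8.68% in the longest. Stab2, Kdr and Flt4 belong to the longest class, Cdh5, Pecam1, Lyve1 and Mrc1 to the one before it, Stab1 and Fcgr2b to class 2 and Clec4g to the shortest. The log2 fold change that genes of the same length and GC content had on average was -0.27 for Stab2, -0.24 for Cdh5, -0.30 for Kdr, -0.37 for Flt4, -0.16 for Pecam1 and 0.14 for Clec4g. It lay between -0.08 and 0.07 for Stab1, Mrc1, Lyve1 and Fcgr2b.

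**Figure D2:**
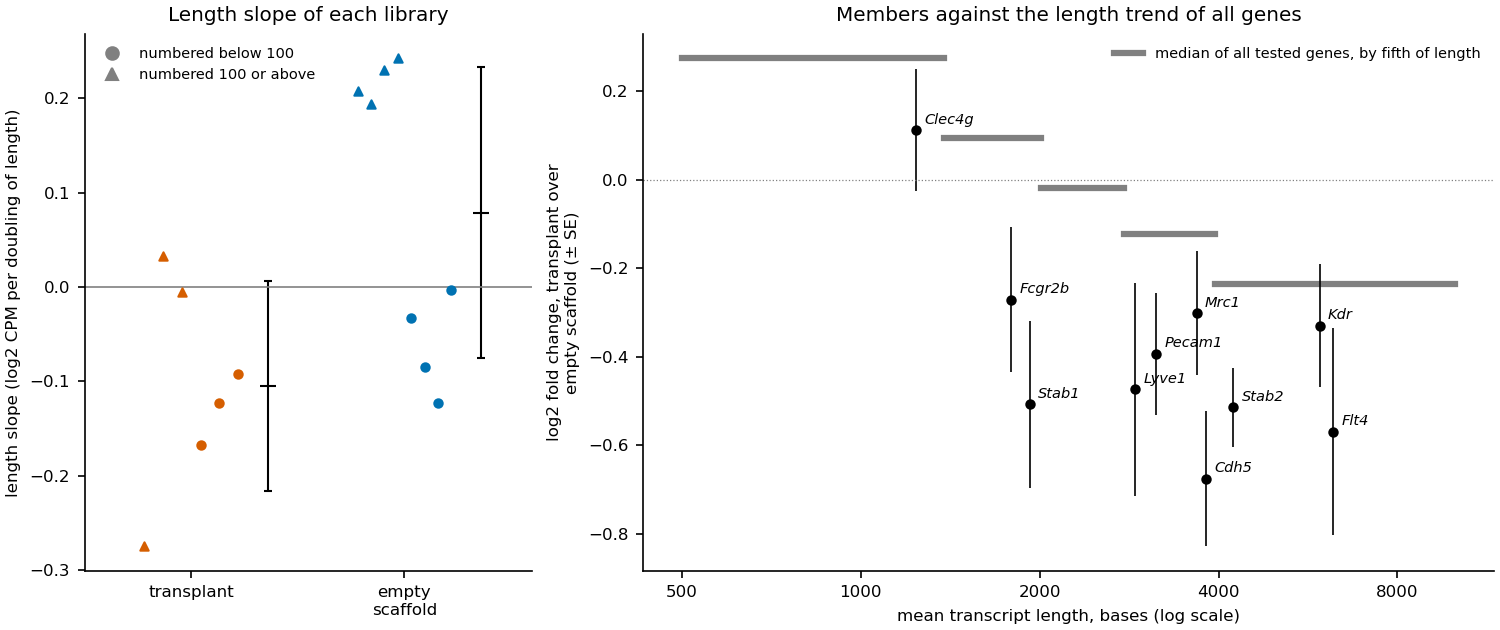
Left, the slope of log2 CPM on log2 transcript length in each library, with group mean and SD. Right, log2 fold change ± SE of each gene against its mean transcript length on a log axis, with the median of all tested genes in each of 5 length classes as grey bars. The 4 empty scaffold libraries numbered 100 or above have slopes of 0.194 to 0.243, and the grey bars descend from 0.27 to -0.24.

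With the trends of length and GC content removed from every library, no member was called. By edgeR's test 4.7% of all genes were then called, 360 higher and 257 lower, against 435 higher and 555 lower before. Before adjustment over all genes, the p stayed under 0.05 for 3 members, Stab2, Cdh5 and Stab1, all lower in transplant livers, as it did in that direction for 8.94% of all genes. Stab2 had a log2 fold change of -0.24 ± 0.09 (edgeR adjusted p = 0.1001) and Cdh5 one of -0.43 ± 0.14 (edgeR adjusted p = 0.0800). Stab1 stayed at -0.48 ± 0.19 and Lyve1 at -0.39 ± 0.28, while Kdr came to -0.004 ± 0.15 and Flt4 to -0.18 ± 0.22. The length used for Stab1 was 1925 bases, a mean over its transcripts weighted by TPM, against 5892 for its protein-coding transcripts alone. Fcgr2b moved the other way, to -0.35 ± 0.17, and Clec4g crossed 0 to -0.05 ± 0.14. The median of the members was -0.24. With the number range also in the fit, Cdh5 was called at -0.45 ± 0.12 (edgeR adjusted p = 0.0347) and Stab2, at -0.24 ± 0.08, was not (edgeR adjusted p = 0.0754), with 8.9% of all genes called. With the length trend alone removed no member was called (5.45% of all genes). With an offset for effective length Cdh5 was the 1 member called, at -0.72 ± 0.16 (edgeR adjusted p = 0.0282, 2.4% of all genes).

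For Stab1, Mrc1 and Stab2 much of the estimated count was assigned to short annotated transcripts that match the 3′ part of the coding transcript. Stab1-204, a retained-intron transcript of 1236 bases, matches bases 6836 to 7999 of the coding transcript of 7999 bases. Mrc1-202, also with a retained intron, matches bases 4173 to 5244 of 5374, and Stab2-205, annotated for nonsense-mediated decay, bases 4500 to 8105 of 8228. Such matches lie toward the 3′ end, and reads there are shared between transcripts of the gene. In the other 7 members protein-coding transcripts held between 89.8% and 100% of the counts in every library.

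The share of Mrc1 counts on its protein-coding transcript was 58.8% ± 17.1 in transplant livers and 75.7% ± 17.1 in empty scaffold livers (SD, n = 6 and 8, two-sided exact permutation p = 0.0936). In transplant libraries it was 43.4% to 85.4% at numbers of 100 or above and 48.0% to 51.5% below 100. It was 86.4% to 96.2% in the 4 empty scaffold libraries numbered 100 or above and 51.8% to 68.9% in the 4 below 100. The 4 libraries with the highest shares also had the 4 highest length slopes. Next came transplant replicate 3, with a share of 85.4% at a slope of -0.00497. The part of the length trend in these shares was not tested.

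**Figure D3:**
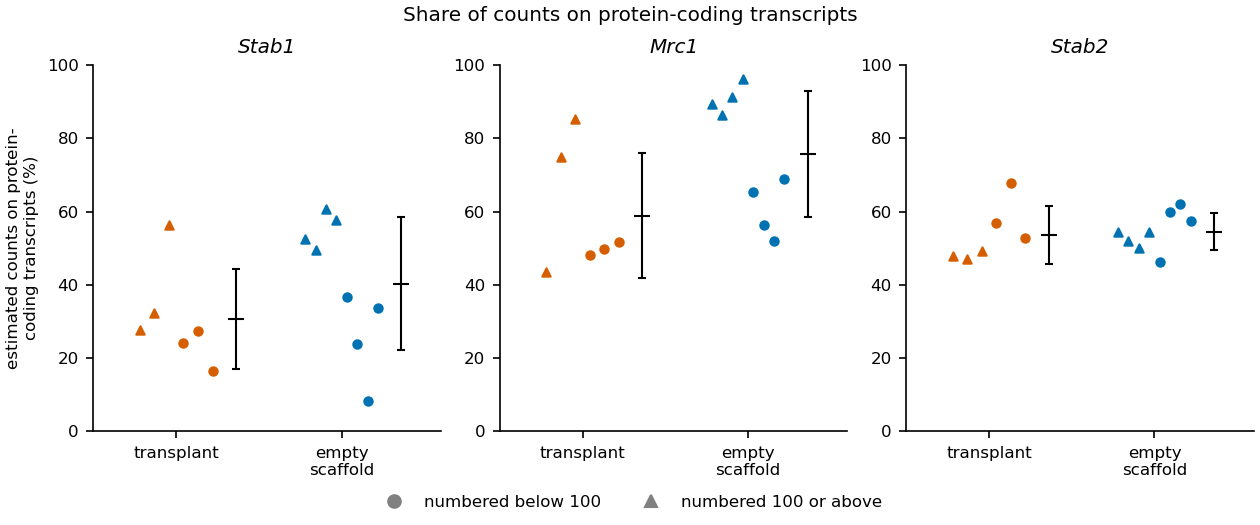
Share of the estimated counts of Stab1, Mrc1 and Stab2 on protein-coding transcripts in each library, in percent from 0 to 100, with group mean and SD (n = 6 and 8). Triangles are libraries numbered 100 or above and circles those below 100. For Mrc1 the 4 empty scaffold triangles lie at 86.4% or higher.

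The coding share of Stab1 was 30.7% ± 13.6 in transplant livers and 40.3% ± 18.2 in empty scaffold livers (exact permutation p = 0.298), and that of Stab2 53.6% ± 7.86 and 54.5% ± 5.17 (exact permutation p = 0.795). When protein-coding transcripts alone were summed, Stab2 was called at a log2 fold change of -0.53 ± 0.10 (edgeR adjusted p = 0.0200) and Cdh5 at -0.67 ± 0.16 (edgeR adjusted p = 0.0314). Mrc1 was also called, at -0.74 ± 0.19 (edgeR adjusted p = 0.0412), among 4.64% of all genes. Stab1 had a larger difference with a larger error, at -1.03 ± 0.45 (edgeR adjusted p = 0.151).

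With the trends of length and GC content also removed from the protein-coding counts, Mrc1 was called at -0.51 ± 0.13 (edgeR adjusted p = 0.0458), with 3.09% of all genes. Stab2, whose length is then 8228 bases in place of a mean of 4235, had -0.14 ± 0.14 (edgeR adjusted p = 0.606). For Stab1, with a mean of 5892 bases in place of 1925, it was -0.53 ± 0.39 (edgeR adjusted p = 0.439). Cdh5 had -0.42 ± 0.15 (edgeR adjusted p = 0.111). Cdh5 was between -0.42 and -0.45 in every fit with length and GC trends removed, while the size for Stab2 and Mrc1 depended on which transcripts were counted.

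**Figure D4:**
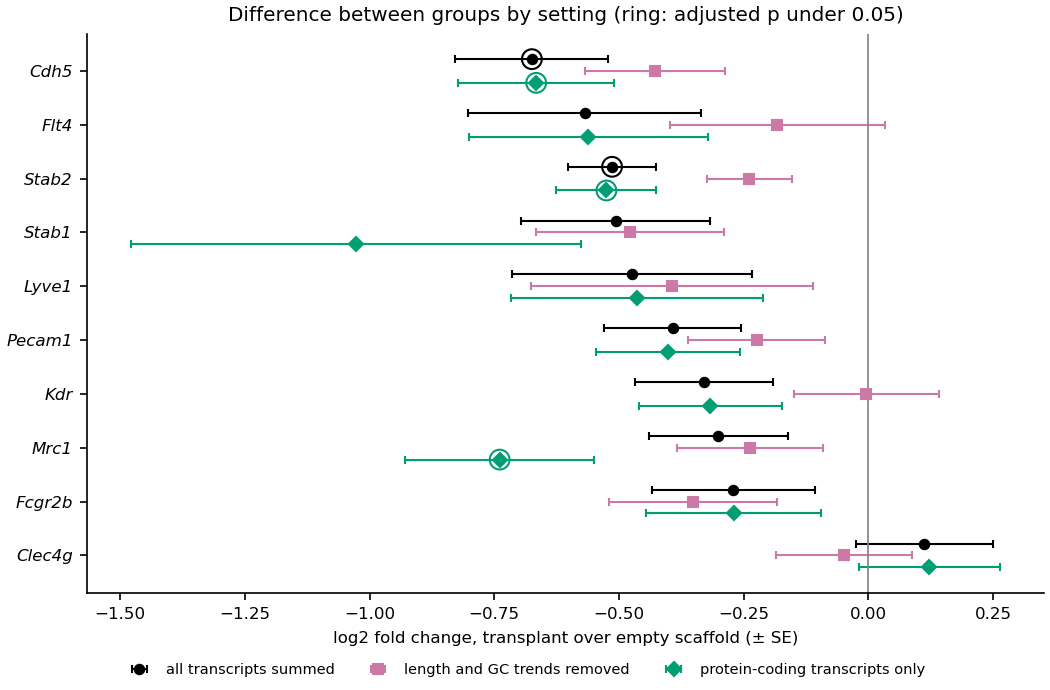
Log2 fold change ± SE of each gene with all transcripts summed, with length and GC trends removed, and with protein-coding transcripts alone. Rings mark an adjusted p under 0.05, which Cdh5 and Stab2 reach in the first and last setting and Mrc1 in the last alone.

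Within the range of numbers of 100 or above, 6 members were called lower: Flt4 (log2 fold change -1.16 ± 0.17), Cdh5 (-1.09 ± 0.16), Stab1 (-0.84 ± 0.20), Kdr (-0.62 ± 0.18), Stab2 (-0.60 ± 0.11) and Pecam1 (-0.52 ± 0.17). In that range 11.5% of all genes were called lower and 26.0% in either direction. Length and GC trends were not removed in the fits within each range. At 100 or above the length slopes were -0.275 to 0.0326 in transplant libraries and 0.194 to 0.243 in empty scaffold libraries. Below 100 they were -0.167 to -0.0919 and -0.123 to -0.00348. The part of the length trend in the calls within a range was not tested. Within the range below 100 edgeR's test called no member and 0.0231% of all genes, and Stab2 was the 1 member with an unadjusted p under 0.05. In that range 5.87% of all genes had such a p with a lower level in transplant livers. The values there were -0.42 ± 0.12 for Stab2, -0.31 ± 0.17 for Cdh5, -0.12 ± 0.22 for Stab1, -0.04 ± 0.34 for Flt4 and -0.03 ± 0.14 for Kdr. Lyve1 had close values in the ranges, -0.47 ± 0.18 at 100 or above and -0.48 ± 0.32 below 100.

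**Figure D5:**
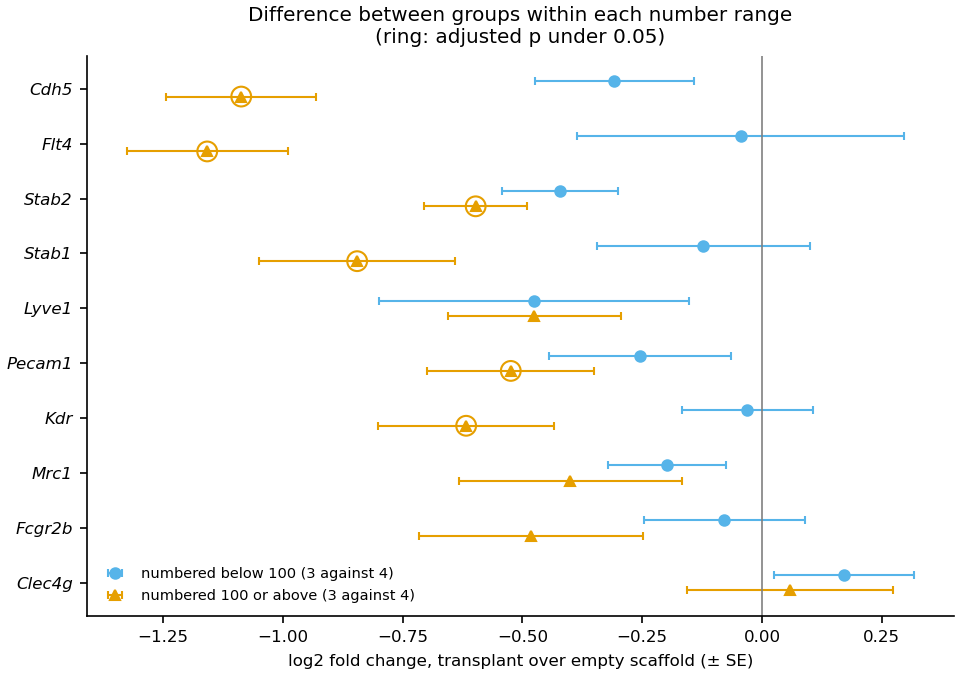
Log2 fold change ± SE within each range of sample numbers, each with 3 transplant and 4 empty scaffold libraries. Rings mark an adjusted p under 0.05. Rings stand on 6 genes at numbers of 100 or above and on none below 100. Length and GC trends were not removed in these fits.

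The difference between the ranges was tested as an interaction of group and range, which called 0 of 13127 genes (0.0%) by edgeR's test, with 2275 at an unadjusted p under 0.05. No other tool was run for it. Among the members the unadjusted p was 0.00369 for Cdh5, 0.0132 for Flt4, 0.0227 for Kdr and 0.0427 for Stab1, with adjusted p-values by edgeR of 0.176 or more. Each of these 4 differences was negative, meaning a lower log2 fold change at 100 or above, and 6.96% of all genes had an unadjusted p under 0.05 in that direction. With length and GC trends removed the interaction again called no gene by edgeR's test, with 1360 at an unadjusted p under 0.05, 3.2% of all genes being in the negative direction. The difference between the ranges for Kdr was then -0.20 in place of -0.59 (unadjusted p = 0.509 in edgeR's test) and for Flt4 -0.67 in place of -1.11 (unadjusted p = 0.109). For Cdh5 it was -0.51 in place of -0.78 (unadjusted p = 0.0319 in edgeR's test), and for Stab1 -0.72 in each fit (unadjusted p = 0.0343). The levels of Flt4 are given as an example. In transplant livers it had 5.35 ± 0.267 CPM at numbers of 100 or above (SD, n = 3) and 9.07 ± 1.16 CPM below 100 (n = 3), while in empty scaffold livers it had 11.9 ± 2.39 CPM (n = 4) and 9.40 ± 3.87 CPM (n = 4).

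Cdh5 followed the same order, with 5.66 ± 0.887 CPM and 8.51 ± 0.971 CPM in transplant livers, and 12.0 ± 1.70 CPM and 10.6 ± 1.91 CPM in empty scaffold livers. Between the ranges themselves, with the group in the fit, 23.4% of all genes were called and Lyve1 was the member among them. Its level was lower at 100 or above by 0.63 ± 0.18 on the log2 scale (edgeR adjusted p = 0.0201). Within a range, all transplant samples carry numbers on one side of all empty scaffold samples, so the group and anything that follows the numbers cannot be told apart.

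Each member was set against the summed CPM of 22 genes that mark endothelium of all vessels, among them Tie1, Tek, Eng and Nos3, none of which is a member. That sum was 152 to 213 CPM in transplant livers and 155 to 244 CPM in empty scaffold livers. The log2 ratio of Cdh5 to it was -4.73 ± 0.37 in transplant livers and -4.20 ± 0.15 in empty scaffold livers, a difference of -0.53 (two-sided exact permutation p = 0.00233, 1 of 10 ratios tested, unadjusted). The difference was -0.35 for Stab2 (exact permutation p = 0.0150) and -0.22 for Pecam1 (exact permutation p = 0.00966). For Clec4g it was 0.28 (exact permutation p = 0.0117), so Clec4g stood higher relative to these genes in transplant livers. For the other 6 members the difference was between -0.37 and -0.11, with exact permutation p-values of 0.0639 to 0.306. Gene length differs between the members and the 22 genes, and its part in these ratios was not tested.

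Other genes of the endothelium were set beside the members. Of 20 further sinusoidal endothelial genes 19 were tested, none was called, at a median log2 fold change of -0.27. Of the 22 genes of all endothelium none was called either, with a median of -0.23. With length and GC trends removed, 2 genes of the sinusoidal list were called lower, while the median of the list came to -0.06. These were Tfpi, an inhibitor of coagulation (-0.60 ± 0.17, edgeR adjusted p = 0.0491), and Clec1b, a C-type lectin (-0.66 ± 0.17, edgeR adjusted p = 0.0399). Neither was called before, at -0.45 ± 0.18 and -0.42 ± 0.18. Clec1b is also in the list of liver C-type lectins below, and the cells that carried the RNA of Tfpi and Clec1b were not tested.

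Among 10 tested VEGF ligands, receptors and signalling partners, which include Kdr and Flt4, none was called. Vegfa, the ligand of Kdr, had 51.9 ± 12.9 CPM in transplant livers and 44.6 ± 9.96 CPM in empty scaffold livers, a log2 fold change of 0.22 ± 0.17. Flt1, the decoy-like receptor of the same ligand, had -0.24 ± 0.21. Of 13 tested partners of endothelial junctions, where Cdh5 and Pecam1 act, none was called and the median was -0.20. Ptprb, Cldn5 and Esam of that list are also among the 22 genes of all endothelium, and the cells that carried the RNA were not tested. Of 17 tested endothelial transcription factors none was called. Gata4, which in mice directs the sinusoidal identity of these cells, had 8.67 ± 1.47 CPM and 9.72 ± 1.30 CPM, a log2 fold change of -0.16 ± 0.12.

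In the lists of neighbouring functions, single genes were lower in transplant livers. Of 14 tested genes of large vessels and other capillaries 2 were called, Thbd, the thrombin receptor thrombomodulin (-0.75 ± 0.19), and Vcam1, an adhesion molecule for leukocytes (-0.85 ± 0.23), while Vwf (-0.50 ± 0.24) and Cd34 (-0.29 ± 0.30) were not. With length and GC trends removed neither was called, with Thbd at -0.51 (edgeR adjusted p = 0.0998) and Vcam1 at -0.73 (edgeR adjusted p = 0.0774). Of 6 tested lymphatic genes Itga9, an integrin subunit, was called at -0.79 ± 0.14, with 5.93 ± 0.536 CPM in transplant livers and 10.2 ± 2.25 CPM in empty scaffold livers. It was also called with length and GC trends removed, at -0.42 ± 0.09 (edgeR adjusted p = 0.0292). Angiocrine factors are signals from endothelium to its neighbours. Of 14 tested genes listed as such, Pdgfb (-0.90 ± 0.20) and Tgfb1 (-0.58 ± 0.17) were called. With trends removed neither was, at -0.67 (edgeR adjusted p = 0.0574) and -0.47 (edgeR adjusted p = 0.0639). Hgf of this list is also in the stellate cell list, and the cells that carried the RNA of the list were not tested.

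Of 12 further scavenger receptors tested, Msr1 (-0.84 ± 0.23) and Cxcl16 (-0.56 ± 0.16), which bind modified lipoproteins, were called lower, also with trends removed (-0.87 and -0.62). Of 7 tested Fc receptor genes, Fcgr2b among them, Fcer1g, the signalling chain of activating Fc receptors, was called at -0.79 ± 0.23. With trends removed Fcgr4 (-0.90 ± 0.24) and Fcgr3 (-0.62 ± 0.17) were called too. Of 11 tested mannose receptor relatives and liver C-type lectins, Mrc1 and Clec1b among them, 2 were called higher, Clec2d (0.81 ± 0.22) and Asgr1, a subunit of the hepatocyte receptor for asialoglycoproteins (0.44 ± 0.13). With trends removed Asgr1 was still called (0.32 ± 0.09) and Clec2d was not (0.55, edgeR adjusted p = 0.0791), and Clec1b and the myeloid lectins Clec4a3 (-1.37 ± 0.33) and Clec4n (-1.01 ± 0.27) were called lower.

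Among the lists of markers of other liver cells, those of Kupffer, stellate and infiltrating myeloid cells held genes that were called lower. In the lymphocyte list the pan-leukocyte gene Ptprc was the 1 gene called. Of 15 Kupffer cell markers, the macrophages of the sinusoids, 5 were called lower: Csf1r (-1.02 ± 0.19), Cd68 (-1.14 ± 0.22), Cd5l (-0.94 ± 0.18), C1qb (-0.66 ± 0.19) and C1qc (-0.64 ± 0.19). Their summed level was 261 to 348 CPM in transplant livers and 330 to 625.5 CPM in empty scaffold livers, at a median log2 fold change of -0.51. Cd5l is largely restricted to Kupffer cells in the liver, as are Clec4f, Vsig4 and Timd4, which were not called. Clec4f had 42.8 ± 8.63 CPM in transplant livers and 57.5 ± 16.3 CPM in empty scaffold livers, and the log2 fold changes were -0.43 ± 0.17 for Clec4f, -0.51 ± 0.25 for Vsig4 and -0.27 ± 0.28 for Timd4. With trends removed 7 of 15 were called lower, at a median of -0.68. Mrc1, Stab1 and Fcgr2b are expressed by macrophages too, and the part of Kupffer cells in their levels was not tested.

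Of 15 stellate cell markers 3 were called lower, Col3a1, a fibrillar collagen (-1.29 ± 0.31), Ngfr (-0.77 ± 0.20) and Lrat, the enzyme that esterifies retinol for storage (-0.48 ± 0.14). The 15 markers summed to 244 to 425 CPM in transplant livers and 278 to 525 CPM in empty scaffold livers. All 15 had a log2 fold change below 0, at a median of -0.62, and of -0.30 with trends removed. Col3a1, Ngfr and Lrat were not called with trends removed. Of 11 tested markers of infiltrating myeloid cells Gpnmb (-2.27 ± 0.60) and Trem2 (-1.14 ± 0.33) were called lower, and of 7 tested lymphocyte markers Ptprc, the pan-leukocyte CD45, was (-0.97 ± 0.28). With trends removed Trem2 was still called, at -1.25 (edgeR adjusted p = 0.0372), while Gpnmb, at -2.08 (edgeR adjusted p = 0.0684), and Ptprc, at -0.79 (edgeR adjusted p = 0.0628), were not. The myeloid markers summed to 64.5 to 118 CPM in transplant livers and 72.7 to 178.95 CPM in empty scaffold livers. Their median log2 fold change was -0.98, with 10 of 11 below 0, and -0.73 with trends removed. The lymphocyte markers summed to 4.16 to 7.89 CPM in transplant livers and 5.89 to 15.2 CPM in empty scaffold livers. Their median was -0.38, with 5 of 7 below 0, and -0.50 with trends removed.

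Platelet markers, which bear on Pecam1, had low counts. Of 7 listed, 3 were tested with a sum of 1.84 to 4.55 CPM in transplant livers and 2.39 to 4.56 CPM in empty scaffold livers, none was called, and Gp9, Gp1ba, Gp1bb and Treml1 had no count in some libraries. Of 7 cholangiocyte markers none was called, at a median of -0.08 and sums of 49.4 to 67.5 CPM and 51.9 to 74.5 CPM. Of 12 hepatocyte markers none was called either, with a median of 0.24, and Alb had 73346 ± 13727 CPM in transplant livers and 66354 ± 13314 CPM in empty scaffold livers. The part of the other cell types in the results on the members was not tested.

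Within the groups the members did not vary as 1 block. Over the 14 libraries, after removal of each group mean, Pearson's r of log2 CPM was 0.83 between Clec4g and Fcgr2b, 0.82 between Fcgr2b and Pecam1 and 0.78 between Fcgr2b and Kdr. Stab2 stood apart, with r between -0.57 (Lyve1) and 0.38 (Kdr). These libraries share their depth and length trends, so r is a description and was not tested.

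The genes most like each member by the same measure were in part other endothelial genes. Fcgr2b was closest to Oit3 (r = 0.93), Elk3 (0.91) and Adgrf5 (0.91), Pecam1 to Tie1 (0.89), Tspan7 (0.88) and Gimap6 (0.85), and Kdr to Exoc3l2 (0.94), Ltbp4 (0.92) and Arhgef15 (0.91). Flt4 was closest to Ednrb (0.95), Apbb2 (0.93) and Tmem109 (0.91), and Clec4g to Aqp1 (0.86), Plpp1 (0.83) and Fcgr2b (0.83). For Cdh5 the closest were Fam43a (0.86), Abcc9 (0.85) and Dchs1 (0.83), and for Stab1 Chst15 (0.93), Myo7a (0.93) and Pear1 (0.92). Stab2 was closest to Lamc3 (0.86), Cry2 (0.85) and Cdk19 (0.82), Lyve1 to Fkbp1a (0.96), Cgref1 (0.96) and Lpar1 (0.95), and Mrc1 to Mical1 (0.85), Cyp4b1 (0.83) and Mndal (0.81).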

How the data were processed

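Per the labels' protocols, liver RNA with an integrity score (RIN) above 7 was extracted with a column kit, and 200 ng per sample went into stranded NEBNext Ultra II Directional libraries. The submitters' processing notes name fastp 0.20, kallisto 0.46.1, DESeq2 1.38 and build GRCm39, with no role. No source used here gives the kallisto options or strand setting. Each of the 14 tables the authors deposited holds, per the file headers, the length, effective length, estimated count and TPM of each transcript. Estimated counts as deposited carry no normalization, and the deposited TPM values entered no test.

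Transcripts were matched to GENCODE M21 (GRCm38), which differs from the submitters' build, for gene names, biotypes, sequence and GC content. It matched 93.6% of 128803 transcripts, which held 99.4% to 99.5% of the counts. Estimated counts were summed per gene, rounded, filtered with filterByExpr, scaled by TMM and fitted with the group as the only term by the robust quasi-likelihood test of edgeR 4.0.16 (R 4.3.3). DESeq2 1.42.0 served as an alternative. Length and GC trends were removed as offsets from natural splines (4 df) on the log2 of length and on GC content, fitted per library. Exact permutation tests ran over all 3003 splits of 6 and 8 libraries, where the smallest possible p is 0.000333. Protein-coding counts with trends removed were added after the data were seen.

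The members and the gene lists were chosen with earlier results of these data known. Genes named are the members; of each list up to 4 called genes with the smallest adjusted p; Clec4f, Vsig4, Timd4, Vwf, Cd34, Flt1, Vegfa, Alb and Gata4; and the 3 genes most like each member with a mean of at least 1 CPM. Genes called only with trends removed, and list members given as examples, were chosen after their values were seen. Samples were grouped by the condition in the labels, and replicate numbers follow their listing order. Exons of Stab1, Stab2, Clec4g and Fcgr2b overlap a gene on the opposite strand, whose reads cannot be told apart if counting ignored strand.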

Additional observations from a re-analysis of the deposited data

How the results depend on the processing

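The log2 fold change of 9 or 10 members was negative in all fits listed here except with the effective length offset, where Stab1 came to 0.0523 and Mrc1 to 0.018. Of all genes, 990 were called, and 1956 with the DESeq2 Wald test, 617 with length and GC trends removed, 315 with the effective length offset and 559 with protein-coding transcripts only. The count was 2580 with the number range as a covariate, 3 with samples below 100, 3488 with samples of 100 or above, and 373 with protein-coding transcripts and trends removed. Leaving out each library in turn gave 138 (without transplant replicate 1) to 1908 (without empty scaffold replicate 7).

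Of the members, 2 were called, beside 7.54% of all genes. The number was 0 with length and GC trends removed (4.7% of all genes), with the length trend alone removed (5.45%) and with samples below 100 (0.0231%). It was 1 with the effective length offset (2.4%) and with trends removed and the number range as a covariate (8.9%). With protein-coding transcripts and trends removed it was also 1 (3.09%), and with samples of 100 or above it was 6 (26.0%). Leaving out each library gave 1 (without transplant replicate 1, 1.04%) to 5 (without empty scaffold replicate 5, 12.0%). The median of the members, -0.43, was -0.16 with samples below 100 and -0.48 to -0.34 leaving out each library. Clec4g turned negative with length and GC trends removed (-0.0497), with the length trend removed (-0.0603), with trends and number range (-0.0371) and with protein-coding transcripts and trends (-0.0645), where Kdr turned to 0.0248. The cause was not tested.

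DESeq2 size factors and either filter on low counts left Stab2 and Cdh5 called. No paired analysis was possible because the replicate numbers follow the listing order and pair no samples. A member had 92 to 1293 counts in a library, and the SE of the fit was largest for Lyve1 (0.24), Flt4 (0.23) and Stab1 (0.19).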
